A study of Oryza sativa Japonica Group with 4 samples.

Results

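The genes described here are the heat shock factors and heat shock proteins of rice roots, chosen as every gene whose symbol or synonym begins with HSF or HSP once a leading Os is dropped. They numbered 49 genes, of which 23 encode factors and 26 encode heat shock proteins, and 43 of them (20 factors and 23 heat shock proteins) were read by a probe set among the 17905 genes covered by the array. Plants of the japonica rice cultivar TNG67 were raised without N to an age of 17 days. Their roots were sampled without N (−N) or after 30 min with 1.43 mM NH4NO3 (+N). The study's array methods do not say whether −N seedlings were also moved to fresh solution. Total RNA of the roots was hybridized to Affymetrix Rice Genome Arrays, with 2 arrays per group. No mutation, transgene or heat treatment entered the design, and every seedling, controls included, had been starved of N beforehand. The labels call the replicates biological and do not say whether they were grown as separate cultures, so each p-value covers no more than the spread among these 4 samples, which may be technical.

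Heat shock factors are transcription factors that bind heat shock elements in promoters and switch on chaperone genes when proteins unfold. Plants hold many of them, in the classes A, B and C. Class A factors carry activation motifs, several class B factors act as repressors, and class C factors, which are most numerous in grasses, lack the activation motif of class A. Heat shock proteins are the chaperones that these factors control. HSP90 proteins, called HSP81 in rice, fold and hold signalling proteins, HSP101 pulls proteins out of aggregates, and the small heat shock proteins keep unfolding proteins soluble. Both groups are best known for heat stress, and many members also respond to salt, drought or oxidative stress.

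A value on this array is the intensity of a probe set, in arbitrary units on a linear scale, and the brightest probe set of a gene was used. Intensities of different probe sets depend on their sequences, so genes were not ranked by them. The median intensity of the arrays lay between 17.1 and 25.4, and arrays with the same replicate number had closely similar medians. Each gene was compared between +N and −N on the log2 scale with limma over 57194 probe sets. A gene was called when it changed at least 2-fold with an unadjusted p under 0.05, the fold and p that the study's methods name. No probe set of the array passed after Benjamini-Hochberg adjustment, against 694 with an unadjusted p under 0.05, so each call below is unadjusted. With 2 arrays in each group, the smallest two-sided p of an exact permutation test is 0.333.

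One member of the group was called, the class C factor *HSFC1B*, which was 4.80-fold higher in +N roots. No heat shock protein was called in either direction. Among all genes 1.01% were called higher and 0.0223% lower and among the members 1 of 20 factors and 0 of 23 heat shock proteins were called higher and none lower. The median log2 fold change was 0.01 over the factors and 0.12 over the heat shock proteins, beside 0.02 over all genes. Roots were profiled in bulk, so a change in the share of a cell type and a change in RNA per cell cannot be told apart.

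*HSFC1B* (LOC4324158) encodes a class C factor that has been tied to salt and osmotic stress tolerance in rice. Its probe set read 201 and 229 on the −N arrays and 1066 and 992 on the +N arrays. Both +N values lay far above both −N values, and the arrays within a group differed little. The log2 fold change was 2.26, with a standard error (SE) of 0.16, a 95% interval from 1.78 to 2.75 and an unadjusted p of 0.000421 from limma (adjusted p = 1). The increase was 5.30-fold between the arrays of replicate 1 and 4.34-fold between those of replicate 2. Among the 17905 genes it stood at rank 46 by log2 fold change and at rank 12 by p. Its adjusted p lay between 0.106 and 1 over the alternative settings, all of which gave an unadjusted call.

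*HSFC1A*, the other measured factor of the C1 type, had the second largest fold change of the factors but was not called. Its intensities were 14.9 and 38.7 on the −N arrays and 47.1 and 65.0 on the +N arrays. Both +N arrays lay above both −N arrays, yet the −N arrays differed from each other by more than the nearest +N and −N arrays did. Its log2 fold change, 1.21 with a standard error of 0.58, had a 95% interval from −0.53 to 2.94 and an unadjusted p of 0.119. The ratio was 3.17 in replicate 1 and 1.68 in replicate 2. It was called after median centring of the arrays (unadjusted p = 0.0066), after quantile normalization and with dim probe sets left out. Much rested on the −N array of replicate 1, without which the log2 fold change was 0.52, while without the −N array of replicate 2 it was 1.90 and called. That first −N array also held the lowest intensity of the nitrate transporter gene *NRT2.3* (314, against 1169 on the other −N array, and 2151 and 2053 on the +N arrays), and its part in the *HSFC1A* value was not tested.

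The third class C factor with a probe set, *HSFC2A*, did not share the direction of the C1 genes. It read 940 and 1225 on the −N arrays and 635 and 1210 on the +N arrays. The low +N value came from replicate 1 alone, and the log2 fold change was −0.29 (SE 0.41, unadjusted p = 0.524). *HSFC2B* had no probe set of its own. The 3 measured class C genes had a median log2 fold change of 1.21 and spanned −0.29 to 2.26, the widest span of any class here.

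**Figure D1:**
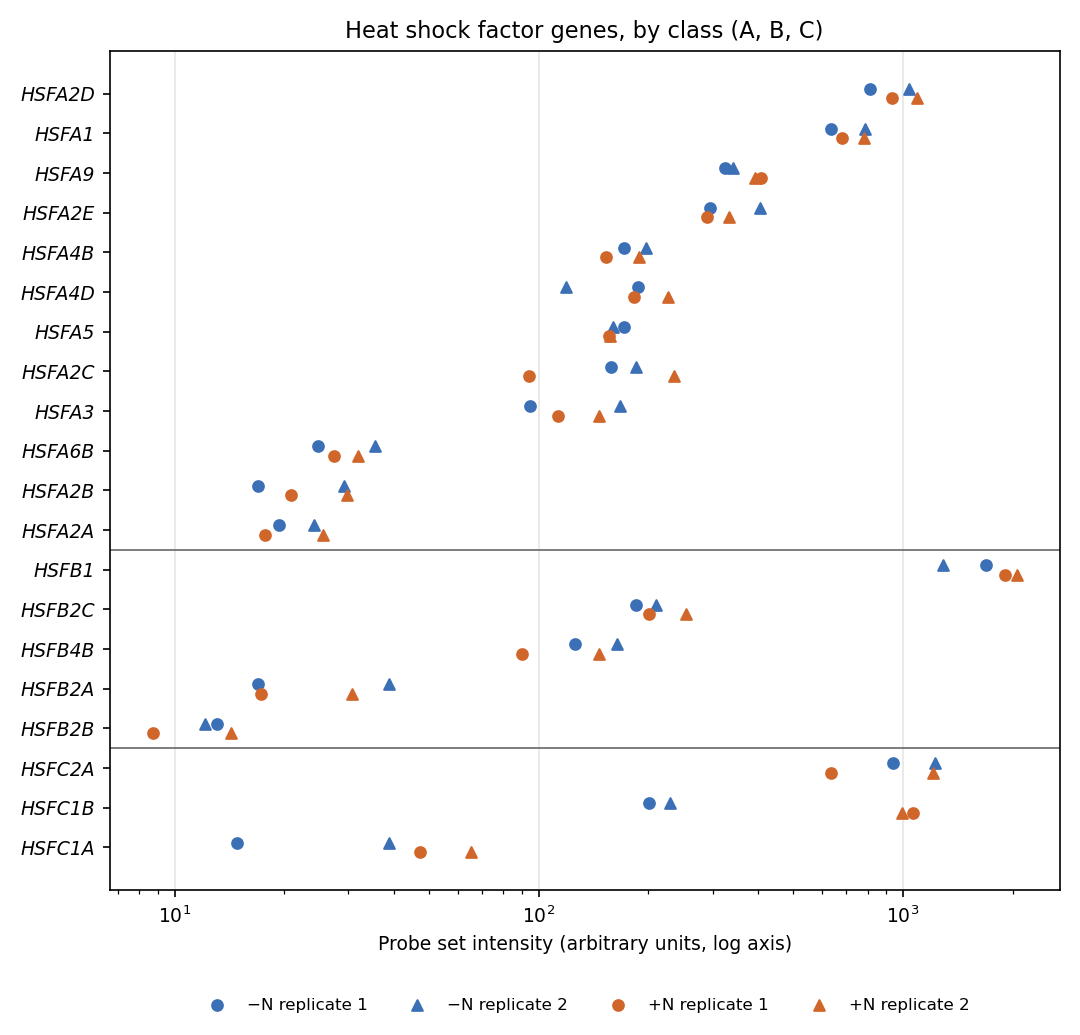
Probe set intensity (arbitrary units, log axis) of the 20 heat shock factor genes on each array, grouped by class A, B and C, with blue symbols for −N, orange for +N, circles for replicate 1 and triangles for replicate 2. The +N symbols of *HSFC1B* (1066 and 992) stand clear of its −N symbols (201 and 229), while in 15 of the 20 genes the symbols of the groups overlap.

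The 5 measured class B factors showed no call. *HSFB1*, whose Arabidopsis relative represses heat shock genes, read 1689 and 1290 on the −N arrays and 1904 and 2052 on the +N arrays. The groups did not overlap, and the increase was small in replicate 1 (log2 difference 0.17) and larger in replicate 2 (0.67). Its log2 fold change was 0.42 (SE 0.21, 95% interval −0.20 to 1.05, unadjusted p = 0.127). *HSFB2C* had a log2 fold change of 0.19, and its other probe sets gave 0.18 and −0.09. *HSFB2B*, a negative regulator of drought and salt tolerance in rice, lay low in signal, between 8.71 and 14.3, with a log2 fold change of −0.18, and its other probe set gave 0.28, the opposite direction. *HSFB2A* had −0.15, with intensities of 16.9 and 38.8 in −N and 17.3 and 30.7 in +N. In *HSFB2A* the arrays fell together by replicate number, not by treatment. *HSFB4B*, whose Arabidopsis relative SCHIZORIZA patterns root stem cells, read 126 and 164 in −N and 90.1 and 146 in +N. It was lower in both replicates, by a log2 fold change of −0.32 (SE 0.34, unadjusted p = 0.398), and its other probe set gave −0.19. *HSFB4C* had no probe set.

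The 12 class A factors, which hold the activators of the heat shock response, showed no call. Their estimated log2 fold changes ran from −0.20 to 0.45 with a median of 0.01, 6 above 0 and 6 below. The 95% intervals of some, such as *HSFA2C* (−1.81 to 1.41) and *HSFA3* (−1.09 to 1.15), include 2-fold changes in either direction. Those of others, such as *HSFA5* (−0.52 to 0.35), do not. *HSFA1*, named after the master regulator of the heat response in tomato, read 635 and 786 in −N and 679 and 782 in +N, a log2 fold change of 0.04 (SE 0.20, 95% interval −0.55 to 0.64). The group values of *HSFA1* overlapped almost wholly, and its interval leaves room for changes of somewhat under 2-fold in either direction. *HSFA9*, whose relatives act in maturing seeds of sunflower and Arabidopsis, read 325 and 341 in −N and 408 and 393 in +N. It was higher in both replicates without overlap, by a log2 fold change of 0.27 (SE 0.14, unadjusted p = 0.149). *HSFA5*, whose Arabidopsis relative represses HSFA4, was the lone factor with both +N arrays (156 and 157) below both −N arrays (172 and 159), a log2 fold change of −0.08 (SE 0.14).

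*HSFA4D*, the *SPL7* gene whose loss gives spotted leaves in rice, had the largest class A value, and it came from 1 replicate. It read 188 and 119 in −N and 183 and 227 in +N, with a log2 difference of −0.04 in replicate 1 and 0.93 in replicate 2. Its log2 fold change was 0.45 (SE 0.31, unadjusted p = 0.240). *HSFA4B*, of the same group, had −0.11, with 171 and 197 in −N and 153 and 189 in +N. The HSFA4 genes therefore showed no shared direction.

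The HSFA2 group, which in other plants keeps up tolerance during long heat, had 5 measured genes between −0.20 and 0.16 on the log2 fold change scale. *HSFA2A* had −0.03 and *HSFA2B* 0.16, and both were dim, with intensities between 16.9 and 29.7. *HSFA2E* read 296 and 406 in −N and 289 and 334 in +N, a log2 fold change of −0.16. *HSFA2C* read 157 and 185 in −N and 94.0 and 236 in +N, so its +N arrays bracketed its −N arrays and the value of −0.20 had a standard error of 0.54. *HSFA2D* read 811 and 1042 in −N and 932 and 1092 in +N, a log2 fold change of 0.13. The table entries of *HSFA2C* and *HSFA2D* also carry names of acireductone dioxygenase (ARD), an enzyme of methionine salvage, and each has a second, far dimmer probe set (log2 fold changes −0.06 and −0.30), so which gene the bright probe set reads is unsettled. *HSFA3*, which in Arabidopsis acts below the drought factor DREB2A, had 0.03, and *HSFA6B* had −0.01. *HSFA6A* had no probe set.

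In 4 of the 20 factors (*HSFC1B*, *HSFC1A*, *HSFB1* and *HSFA9*) both +N arrays lay above both −N arrays, which held for 9.23% of all genes, and in 1 (*HSFA5*) they lay below, which held for 5.12%. Within replicate numbers, 7 factors were higher in +N in both replicates, 5 were lower in both and 8 were mixed, where 28.7% of all genes were higher in both and 21% lower in both. Without *HSFC1B* the median log2 fold change of the other 19 factors was −0.01. The signs of the factors were evenly divided, 10 positive and 10 negative.

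**Figure D2:**
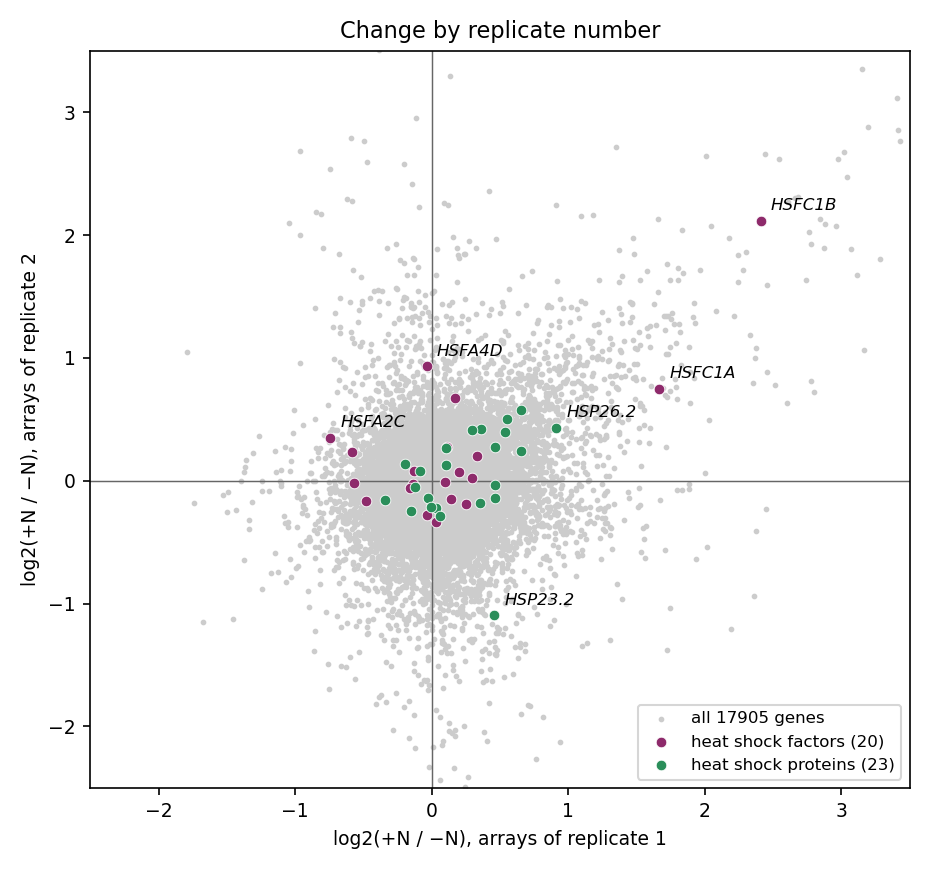
Log2 ratio of +N to −N between the arrays of replicate 1 (horizontal) and between those of replicate 2 (vertical) for all genes (grey), the 20 heat shock factors (purple) and the 23 heat shock proteins (green), with 50 genes beyond the plotted range of −2.5 to 3.5. *HSFC1B* lies far from the rest of its family in both replicates (2.41 and 2.12), *HSFC1A* lies out mainly in replicate 1 (1.67 and 0.75), and the heat shock proteins stay within 0.91 of 0 except *HSP23.2* (0.46 and −1.09).

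The heat shock protein genes were not called. Their estimated log2 fold changes ran from −0.32 to 0.67, with 13 positive and 10 negative. The confidence intervals of some, such as *HSP16.0* (−1.68 to 2.61) and *HSP23.2* (−2.88 to 2.25), include 2-fold changes in either direction. Those of others, such as *HSP81-2* (−0.74 to 0.24), do not. Where the interval is that wide, the lack of a call does not show that a gene stayed unchanged. Of the 19 measured small heat shock proteins 13 had positive and 6 negative log2 fold changes. Among them 10 were higher in both replicates and 1, *HSP16.6*, was lower in both, with a median log2 fold change of 0.18. Of all 17905 genes 9602 had positive log2 fold changes, 28.7% were higher in both replicates and 21% were lower in both. With the probe sets used, all 3 HSP81 genes were lower in both replicates, with a median of −0.11. For *HSP81-1* the log2 difference in replicate 1 was only −0.003. Whether these subgroups differ from each other or from other genes was not tested.

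In the fit as reported, *HSP18.8*, a small heat shock protein gene, was the one chaperone gene with an unadjusted p under 0.05. The share of all genes with such a p and a higher value was 2.01%. *HSP18.8* read 2324 and 2601 on the −N arrays and 3654 and 3870 on the +N arrays. The groups were apart and the replicates nearly alike, with log2 differences of 0.65 and 0.57. The log2 fold change of 0.61 (1.53-fold, SE 0.16, 95% interval 0.15 to 1.08, unadjusted p = 0.0236, adjusted p = 1) fell short of 2-fold. Its unadjusted limma p depended on the setting, at 0.0629 after median centring and 0.130 with dim probe sets left out. After quantile normalization it was 0.0198, and *HSP26.2*, *HSP18.6*, *HSP17.9A*, *HSP22.3* and *HSP18.0* then also had a p under 0.05. The only probe set of *HSP18.8* has the suffix that Affymetrix gives to sets with probes able to bind other transcripts. Similar small heat shock protein genes may therefore add to its signal. The sets used for *HSP26.2*, *HSP18.6*, *HSP18.1*, *HSP81-3* and *HSFB4B* also have suffixes (s or x) for sets that may read several transcripts.

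In 6 of the 23 heat shock proteins, all of them small ones, both +N arrays lay above both −N arrays, as in 9.23% of all genes. Besides *HSP18.8* these were *HSP26.2*, *HSP18.6*, *HSP17.9A*, *HSP17.9B* and *HSP16.9A*. *HSP26.2* had the highest log2 fold change of the heat shock proteins, 0.67 (SE 0.37, unadjusted p = 0.154), with 34.5 and 60.7 in −N and 64.9 and 82.0 in +N. It was called only when the −N array of replicate 2 was left out (log2 fold change 1.08). *HSP18.6* read 24.8 and 29.8 in −N and 36.4 and 42.1 in +N, a log2 fold change of 0.53 (SE 0.19, unadjusted p = 0.0616). Its other probe sets gave 0.12 and −0.07, so its probe sets disagreed on the size and the sign of the change.

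*HSP17.9A* read 459 and 704 in −N and 720 and 830 in +N, a log2 fold change of 0.44 (SE 0.29, unadjusted p = 0.209). The +N array of replicate 1 lay barely above the higher −N array. *HSP17.9B* was tighter, with 698 and 634 in −N and 855 and 845 in +N, and its log2 fold change was 0.35 (SE 0.15, unadjusted p = 0.0884). *HSP17.9B* lies on chromosome 1 in an unbroken run of 5 neighbouring genes with *HSP16.6*, *HSP16.9C*, *HSP16.9A* and *HSP16.9B*. Whether the run moved together was not tested. *HSP16.9A* had 0.18 (SE 0.16), with 24.8 and 21.5 in −N and 26.6 and 25.8 in +N, and *HSP16.6* had −0.08 (SE 0.35). *HSP16.9B* stayed close to the floor of the array (between 5.65 and 6.99), and *HSP16.9C* had no probe set.

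*HSP17.4* and *HSP18.1* are neighbours on chromosome 3 and had log2 fold changes of 0.21 and −0.11. *HSP17.7* read 694 and 1087 in −N and 711 and 932 in +N, a log2 fold change of −0.09 that lay within the spread of the −N arrays. *HSP18.0* read 340 and 504 in −N and 469 and 609 in +N, a log2 fold change of 0.37 (SE 0.30, unadjusted p = 0.295). Its other probe sets gave −0.04 and −0.08, so the rise within both replicates was seen with 1 of 3 probe sets. *HSP16.0* had 0.47, with 23.6 and 60.6 in −N and 34.3 and 79.6 in +N, and here the replicate number set the arrays further apart than the treatment did. *HSP22.3* had 0.39 (SE 0.37) and was higher in both replicates, with overlapping groups.

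The other small heat shock proteins had values near 0 or wide spread. *HSP24.1* had a log2 fold change of 0.09, with 149 and 253 in −N and 191 and 223 in +N. *HSP17.8* had 0.16 and *HSP21.9* 0.12, both at intensities under 17. *HSP26.7*, a small heat shock protein of plastids, stood between 7.13 and 8.22 on all arrays (log2 fold change −0.03), close to the floor of 5.16. *HSP23.2* had the lowest value, −0.32, and rested on 1 array, with 8.17 and 35.5 in −N and 11.2 and 16.6 in +N, so that replicate 1 gave 0.46 and replicate 2 gave −1.09. *HSP18.9* and *HSP19.0* had no probe set.

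**Figure D3:**
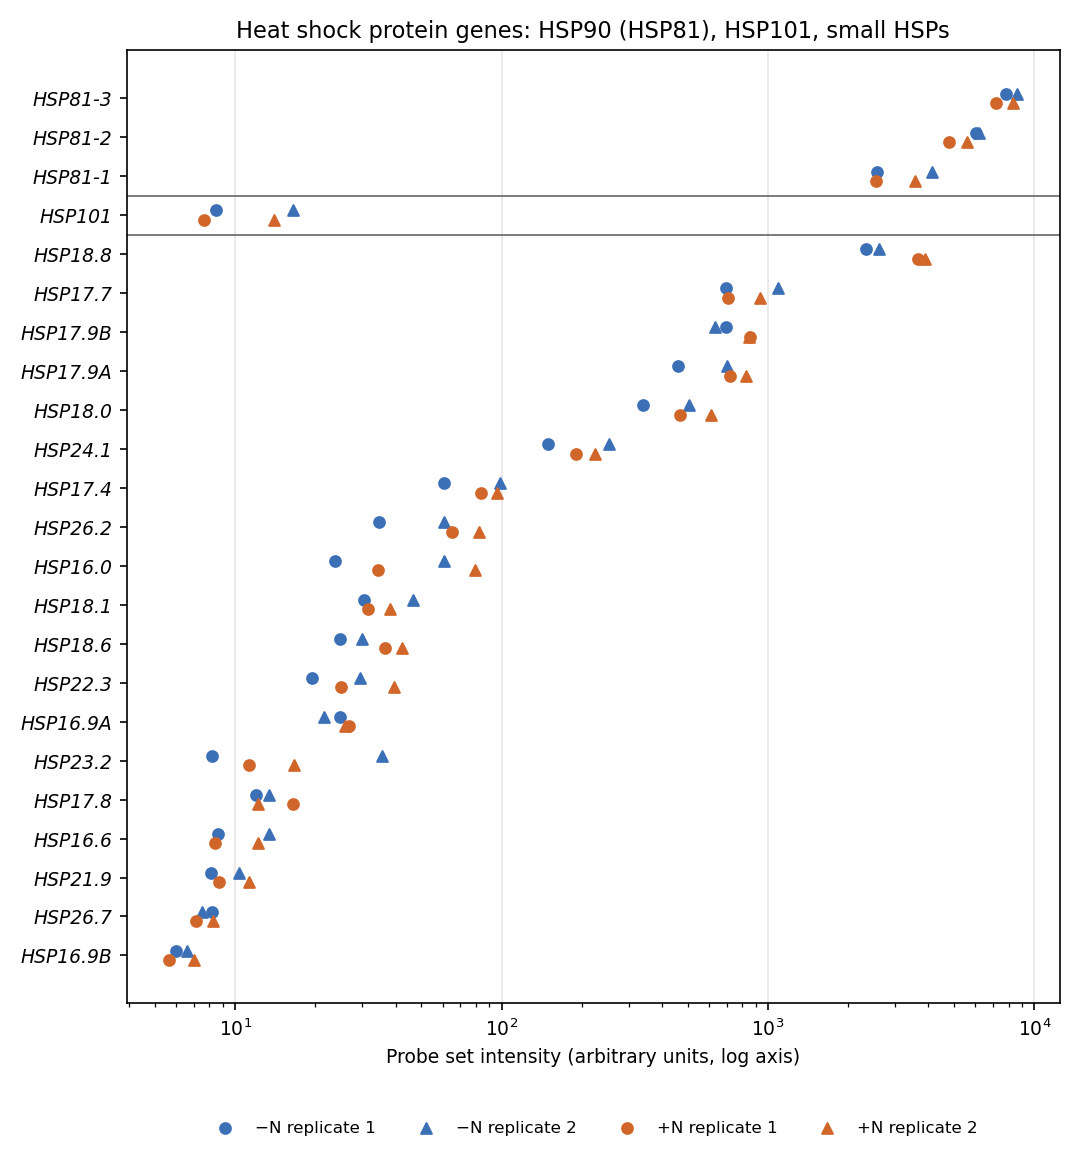
Probe set intensity (arbitrary units, log axis) of the 23 heat shock protein genes on each array, in the order HSP81 genes, *HSP101* and small heat shock proteins, with blue symbols for −N, orange for +N, circles for replicate 1 and triangles for replicate 2. *HSP18.8* is the gene whose +N symbols (3654 and 3870) stand most clearly to the right of its −N symbols (2324 and 2601), and the +N symbols of *HSP81-2* stand to the left.

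The HSP81 genes encode the HSP90 chaperones. *HSP81-2* read 6056 and 6197 in −N and 4779 and 5572 in +N, and it was the one heat shock protein gene of 23 with both +N arrays below both −N arrays, as in 5.12% of all genes. Its log2 fold change was −0.25 (SE 0.16, 95% interval −0.74 to 0.24, unadjusted p = 0.218). *HSP81-3*, which lies close by on chromosome 9, read 7811 and 8634 in −N and 7176 and 8351 in +N, a log2 fold change of −0.09 (SE 0.17). Its other probe sets gave values from −0.26 to 0.04. The dim set with 0.04 was higher in replicate 1 (log2 difference 0.39) and lower in replicate 2 (−0.31). *HSP81-1* read 2556 and 4140 in −N and 2551 and 3568 in +N, a log2 fold change of −0.11 (SE 0.36). Its other probe set was mixed, with log2 differences of −0.53 in replicate 1 and 0.03 in replicate 2.

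The HSP81 sequences are alike, and 2 further probe sets are paired with *HSP81-2*, *HSP81-3* and another gene at once. They were kept out of the counts. One read 1651 and 1717 in −N and 1242 and 1321 in +N, a log2 fold change of −0.39 (SE 0.14, unadjusted p = 0.0637). The other read 4808 and 5759 in −N and 4312 and 5394 in +N, a log2 fold change of −0.13. Both were lower in each replicate, as were the HSP81 probe sets used here, each paired with 1 gene. In *HSP81-1* the replicate 1 arrays were almost equal (log2 difference −0.003), and none of these sets was called. The set used for *HSP81-3* has a suffix for sets that may read several transcripts. With such sets left out the log2 fold change of *HSP81-3* was −0.26.

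*HSP101*, which encodes the ClpB disaggregase that seedlings need to survive strong heat, was at low signal in both groups, 8.48 and 16.5 in −N and 7.64 and 13.9 in +N. Its log2 fold change of −0.20 had a standard error of 0.52 and a 95% interval from −1.75 to 1.35, which includes changes of 2-fold in either direction. No gene named HSP70 was present under the name rule.

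Other chaperones and co-chaperones, taken from a list of name patterns, were not called either. The list had 39 genes, 33 of them measured, and 10 of these entered through names beginning with bip or BIPP2C that do not stand for chaperones. The other 23 had log2 fold changes from −0.18 to 0.26 with a median of 0.05. *BIP1*, the HSP70 chaperone of the endoplasmic reticulum, read 702 and 2321 in −N and 1017 and 1717 in +N, so the −N arrays alone spanned the +N arrays. The J-domain gene *DJA6*, an HSP40 co-chaperone, read 7318 and 7522 in −N and 6750 and 7930 in +N (log2 fold change −0.02). The HSP90 co-chaperone gene *SGT1* (OsJ_02663) read 2857 and 3911 in −N and 2915 and 3891 in +N (0.01), and the calreticulin gene *CRO1* read 1776 and 4272 in −N and 2344 and 3862 in +N (0.13). In these 4 genes the groups overlapped. Of the 33 measured genes 1, the J-domain gene *DJC79*, had both +N arrays (690 and 775) below both −N arrays (778 and 779), as in 5.12% of all genes. The log2 fold change of *DJC79* was −0.09 (SE 0.15). In 0 of the 33 both +N arrays lay above both −N arrays, against 9.23% of all genes.

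The root label was checked against marker genes. *Lsi1*, the silicon transporter of rice roots, read between 7224 and 9869 on the arrays, while *PHT1-6* of the same root list read between 21.7 and 28.3. Leaf genes were not absent, since *CAB2R*, a chlorophyll-binding protein gene, read between 7870 and 11216, *LHCP* between 2361 and 4882, and the Rubisco small subunit gene RBCS-C (OsJ_016909) between 304 and 1303, while *RBCS1* stood at the floor or just above it. The leaf pattern list had 7 measured genes, 1 of which entered through an abscisic acid receptor name, and the root list 7, with none called in either. The lowest value of *CAB2R*, *LHCP* and RBCS-C was that of the −N array of replicate 1, the array on which *HSFC1A* was also lowest, and their part in the results above was not tested.

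**Figure D4:**
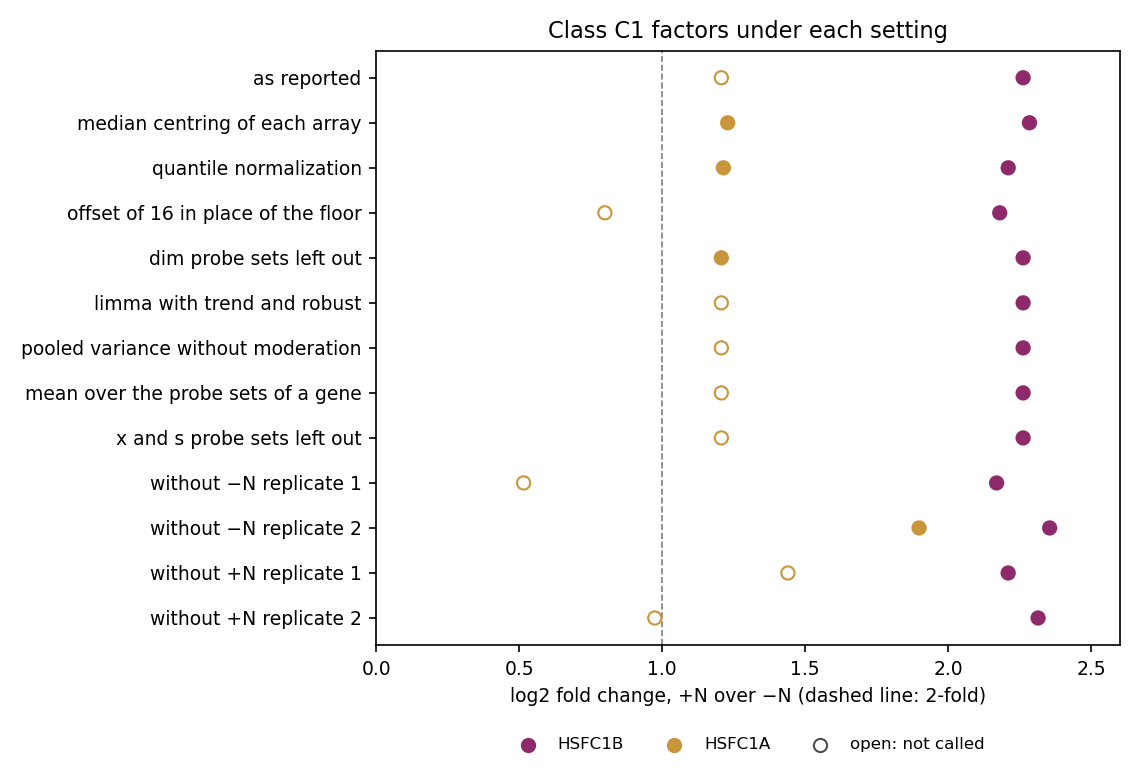
Log2 fold change of *HSFC1B* (purple) and *HSFC1A* (yellow) as reported and under the alternative scalings, floors, filters, variance models and probe set rules and with each array left out, with filled symbols for calls (at least 2-fold, unadjusted p under 0.05), open symbols for none and the dashed line at 2-fold. *HSFC1B* stays between 2.17 and 2.35 and is called throughout, while *HSFC1A* runs from 0.52 to 1.90 and is called in 4 of the settings plotted.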

How the data were processed

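The authors deposited probe set intensities on a linear scale, in 1 column for each array. GCOS and RMA stand in the submitters' processing notes, with no version or role, and what either did was not given in the sources used here. Of 57381 probe sets 187 controls were left out. Intensities under 5.16, the 5th percentile of all values (3.59% to 6.92% of the probe sets of an array), were set to it and log2 was taken. The groups were compared with limma 3.58.1 in R 4.3.3 (lmFit and eBayes, group as the only term), and the p was adjusted by Benjamini-Hochberg over 57194 probe sets. The fit was tested on simulated data. The number of arrays limits the precision.

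Names came from the platform annotation and from a gene table of assembly ASM3414082v1, which was used for names and gene order only, so no coordinates are given. The rule for naming was every measured factor, every measured heat shock protein, and of the other chaperones those called and the brightest 3. *BIP1*, *DJC79* and the marker genes were chosen after their values were seen. Members and lists were chosen with earlier results of these data known. Of the factors, 2 also carry a name beginning with HSP and were counted as factors. Alternatives were median centring, quantile normalization, an offset of 16 instead of the floor, a filter on dim probe sets, other variance models, a replicate block, other probe set rules, a fold threshold of 1.5 and leaving out each array. Promoter motifs were planned and not analysed here. Figures were drawn with matplotlib 3.10.9.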

Additional observations from a re-analysis of the deposited data

How the results depend on the processing

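*HSFC1B* was called in every setting run, with a log2 fold change of 2.17 to 2.35 when an array was left out and 2.18 to 2.28 otherwise. The factors called higher rose from 1 to 2, with *HSFC1A* as the second, after median centring, quantile normalization, leaving out dim probe sets and with the replicate block, and numbered 1 to 2 with an array left out. *HSFC1A* had an unadjusted p of 0.0066 after centring, 0.0365 after quantile normalization, 0.0428 with dim probe sets out and 0.0424 with the replicate block. The labels do not say that a replicate number marks a shared batch, and same-numbered arrays deviated together with a correlation of 0.446. With the replicate block *HSP18.8*, *HSP18.6*, *HSP16.0*, *HSP22.3*, *HSP26.2* and *HSP17.9B* had an unadjusted p under 0.05, none of them at 2-fold. Heat shock proteins called higher numbered 1 (*HSP18.8*) at a fold threshold of 1.5, and 0 to 1 with an array left out (*HSP26.2* without the −N array of replicate 2).

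The median log2 fold change of the factors was 0.034 after centring, −0.0048 after quantile normalization, 0.031 with dim probe sets out and −0.15 to 0.24 with an array left out. That of the heat shock proteins was 0.28 with dim probe sets out, where fewer genes remain, and −0.073 to 0.28 with an array left out. Leaving out an array unbalances the differently scaled replicates, and it moved the median of all genes to between −0.23 and 0.28. After adjustment 30 genes passed with centring and 14 with dim probe sets out, *HSFC1B* not among them (adjusted p = 0.106 and 0.154), and 0 in the other settings. *HSP101*, *HSP26.7* and *HSP16.9B* lie near the floor.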
